A study of Mus musculus with 6 samples.

Results

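Siglecf, Marco, Pparg, Itgax, Fabp1, Krt79, Csf2ra, Csf2rb, Csf2rb2 and Csf1r were followed here as genes of alveolar macrophage identity and of the receptors for the growth factors GM-CSF and CSF1. They were taken by gene symbol from the platform annotation of the arrays. These 10 genes, of 19057 genes with a named probe, had 16 of the 34885 probes that carried 1 gene symbol. Each gene was read from its brightest probe by mean over all arrays. The brightness filter, a mean in the brighter 50% of all probes, kept 9 of the 10 and left Fabp1 out.

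RNA of lung antigen presenting cells from female C57BL/6 mice was measured on 6 Illumina arrays, with 3 groups of 2. One group was of wild type mice in room air, the next of wild type mice that had been in cigarette smoke for 4 months, and the last of Spp1-/- mice, which lack the gene of the secreted protein osteopontin, after the same 4 months of smoke. No Spp1-/- mice in air were among the samples, so the third comparison, Spp1-/- smoke against wild type air, differs in genotype and exposure together. The labels give no method of cell isolation. Nor do they say whether each array stands for its own mouse, so every p-value measures only the spread between these arrays, and that spread may be technical. No probe was paired with Spp1, and the genotype labels were therefore not checked on the targeted gene. All 3 comparisons came from 1 fit and share arrays with each other.

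Alveolar macrophages live on the air side of the lung and clear inhaled particles and surfactant lipids. In mice they need GM-CSF, a growth factor made largely by alveolar epithelium, which acts through its receptor and the nuclear receptor PPAR-gamma to set and keep their identity. GM-CSF binds an alpha chain, Csf2ra, that is specific for it and signals through the common beta chain, Csf2rb, which the receptors for IL-3 and IL-5 also use. Mice carry a further beta chain gene, Csf2rb2, whose product works in the IL-3 receptor and is close to Csf2rb in sequence. Csf1r, the receptor for CSF1 and IL-34, is carried by monocytes and macrophages at large.

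The promoter windows of the 3 genes whose levels changed with smoke, Itgax, Pparg and Krt79, are printed because those genes carry the calls below. That of Csf2rb2 is printed because it holds the only match to the STAT motif among the windows searched. No window of Csf2rb or Csf1r was searched. Each printed window holds 250 bases before and 50 after an annotated start, taken from RefSeq on GRCm38.p6, 5′ to 3′ on the gene's strand. Capitals mark matches, on either strand, to GGAAGT, the core of sites of the macrophage factor PU.1 and its ETS relatives, or to TTCNNNGAA, the site bound by STAT proteins such as those downstream of GM-CSF. These motifs do not overlap each other in the windows shown. Itgax lies at chr7:128129300-128129599 on the plus strand, the first of 3 Pparg windows at chr6:115360894-115361193 on the plus strand, Krt79 at chr15:101940275-101940574 on the minus strand and Csf2rb2 at chr15:78305672-78305971 on the minus strand.
Itgax: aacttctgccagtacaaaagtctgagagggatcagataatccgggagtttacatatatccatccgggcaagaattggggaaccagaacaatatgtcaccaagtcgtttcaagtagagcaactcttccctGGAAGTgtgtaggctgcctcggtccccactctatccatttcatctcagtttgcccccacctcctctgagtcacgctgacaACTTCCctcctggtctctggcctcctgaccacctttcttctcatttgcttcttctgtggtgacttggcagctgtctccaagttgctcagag
Pparg: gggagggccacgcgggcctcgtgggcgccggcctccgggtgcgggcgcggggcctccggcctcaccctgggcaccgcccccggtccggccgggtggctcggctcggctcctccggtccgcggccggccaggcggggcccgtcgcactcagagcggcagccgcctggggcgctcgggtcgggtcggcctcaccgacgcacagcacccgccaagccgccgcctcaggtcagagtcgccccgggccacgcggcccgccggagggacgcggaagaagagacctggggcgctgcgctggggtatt
Krt79: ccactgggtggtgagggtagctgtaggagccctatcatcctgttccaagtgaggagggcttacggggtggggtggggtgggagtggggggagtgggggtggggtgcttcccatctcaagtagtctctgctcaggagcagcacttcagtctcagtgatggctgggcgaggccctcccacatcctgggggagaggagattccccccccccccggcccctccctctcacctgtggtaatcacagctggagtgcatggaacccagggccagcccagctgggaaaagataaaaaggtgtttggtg
Csf2rb2: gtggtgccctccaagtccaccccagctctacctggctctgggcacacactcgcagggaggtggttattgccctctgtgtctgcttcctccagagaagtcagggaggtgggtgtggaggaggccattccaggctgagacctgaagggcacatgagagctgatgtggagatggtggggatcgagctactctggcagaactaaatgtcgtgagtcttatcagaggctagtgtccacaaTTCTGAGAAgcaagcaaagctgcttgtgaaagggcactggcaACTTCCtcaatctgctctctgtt

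Of the 300-base windows of all genes, 23.8% of 32851 held GGAAGT and 8.3% held TTCNNNGAA. The Itgax window had GGAAGT at -121 and -41, counted from the annotated start to the first base of the match. The Csf2rb2 window had GGAAGT at 27 and TTCNNNGAA at -15. The Siglecf window, not printed, had GGAAGT at -22. The windows of Marco, Fabp1, Krt79 and Csf2ra and the 3 windows of Pparg had neither motif. A window of Csf2rb was not used, and no window of Csf1r is given. Csf2rb2 and Csf2rb were neighbours on chromosome 15 with 0 annotated genes between them. The first Pparg window stood out in base composition, with 80.3% G and C against 40.3% in the third and 62.0% in that of Krt79.

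Values are the deposited log2 intensities, whose lowest value was 6.619, median 7.264 and highest 16.014. A probe's brightness also depends on its sequence, so levels are compared between arrays and not between genes. In these preparations Csf2ra was brighter than 99.1% of all probes, Pparg than 97.1%, Marco and Itgax than 96.3% each, Csf2rb2 than 94.3%, Csf1r than 92.8% and Krt79 than 92.5%. Siglecf and Csf2rb lay close above the filter, brighter than 65.8% and 61.8%, and Fabp1 was brighter than 0.424%. Of the 6 genes used as the identity set, Marco, Pparg, Itgax and Krt79 were thus well measured, Siglecf was dim and Fabp1 was near the lowest value of the table.

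**Figure D1:**
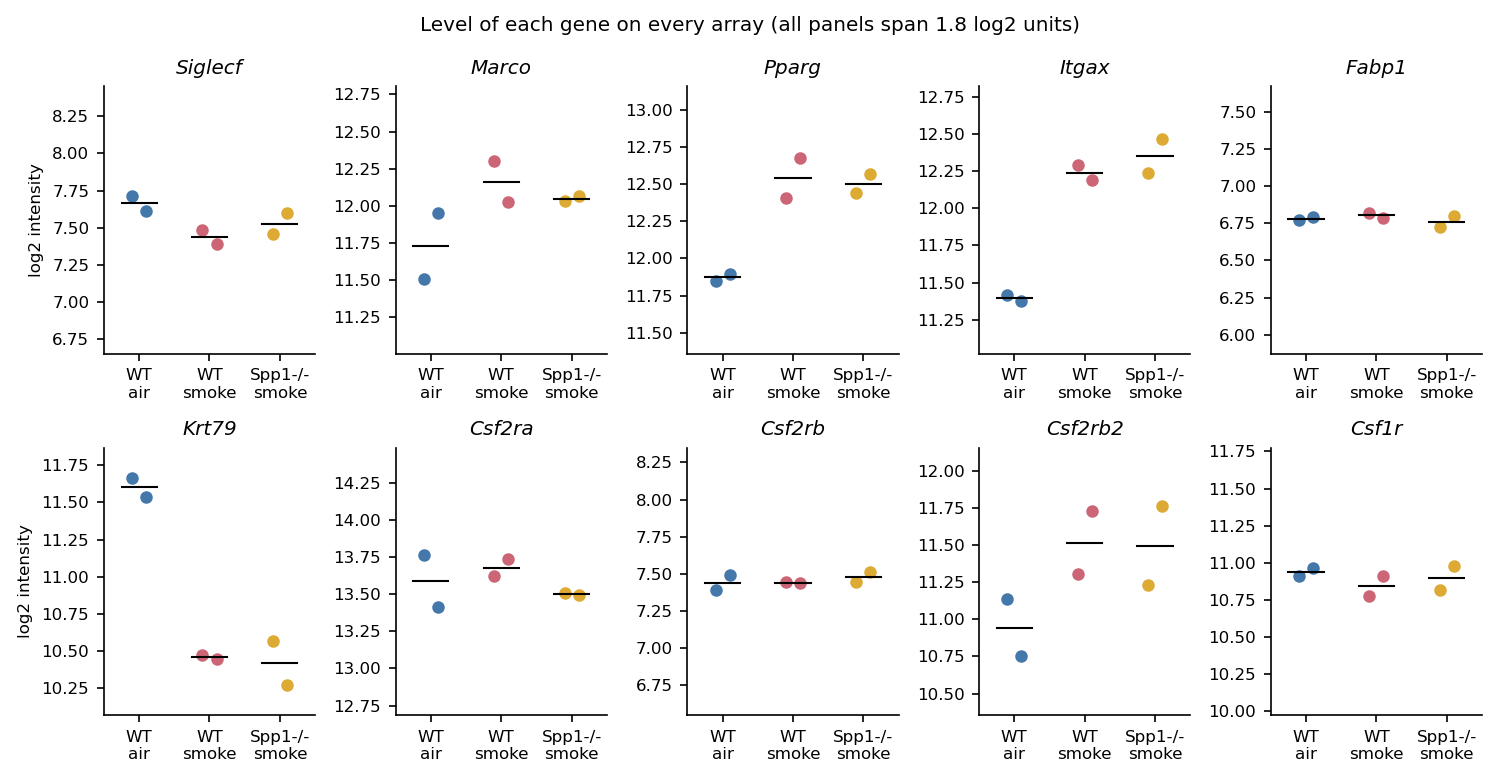
Log2 intensity of each of the 10 genes on every array (points), with a line at the mean of the 2 arrays of a group; the panels have the same span but different centres. Pparg and Itgax are higher, and Krt79 lower, on all 4 smoke arrays than on both air arrays, while the wild type and Spp1-/- smoke arrays overlap for these 3 genes.

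The preparations differed in more than these genes. The marker lists were chosen with earlier results of these data known. In wild type smoke against air, 11.1% of all genes were called higher and 10.3% lower. Of the lung epithelium markers tested, 10 of 13 were lower in wild type smoke than in air and 0 were higher, with a median log2 difference of -1.71; the log2 of their summed intensity was 17.17 to 17.38 on the air arrays, 15.53 to 15.85 on those of smoke-exposed wild type mice and 15.4 to 15.8 on those of Spp1-/- mice. The surfactant genes Sftpc (14.90 in air, 12.18 in wild type smoke) and Sftpa1 (12.50 and 9.24) were among those that fell. Endothelial markers (7 of 9 lower), fibroblast and smooth muscle markers (9 of 9), B cell markers (4 of 5) and T and NK cell markers (4 of 6) fell as well, and none of these rose. Without the first or the other wild type smoke array the counts that fell were 5 and 6 for epithelium, 5 and 5 for fibroblasts and smooth muscle, 2 and 2 for B cells and 0 and 1 for T and NK cells, and 7 for endothelium in both cases. General leukocyte genes rose in 4 of 11 and fell in 1, and without either wild type smoke array 1 rose and 0 fell. Fits without a wild type smoke array leave 1 array in that group, and fewer of all genes passed in them too. In a bulk sample, fewer cells of a type and less RNA per cell cannot be told apart, and the part of these marker shifts in the results below was not tested. The 2 wild type air arrays were also the least alike, with a median SD of a gene of 0.149, against 0.0909 for wild type and 0.0869 for Spp1-/- mice under smoke.

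**Figure D2:**
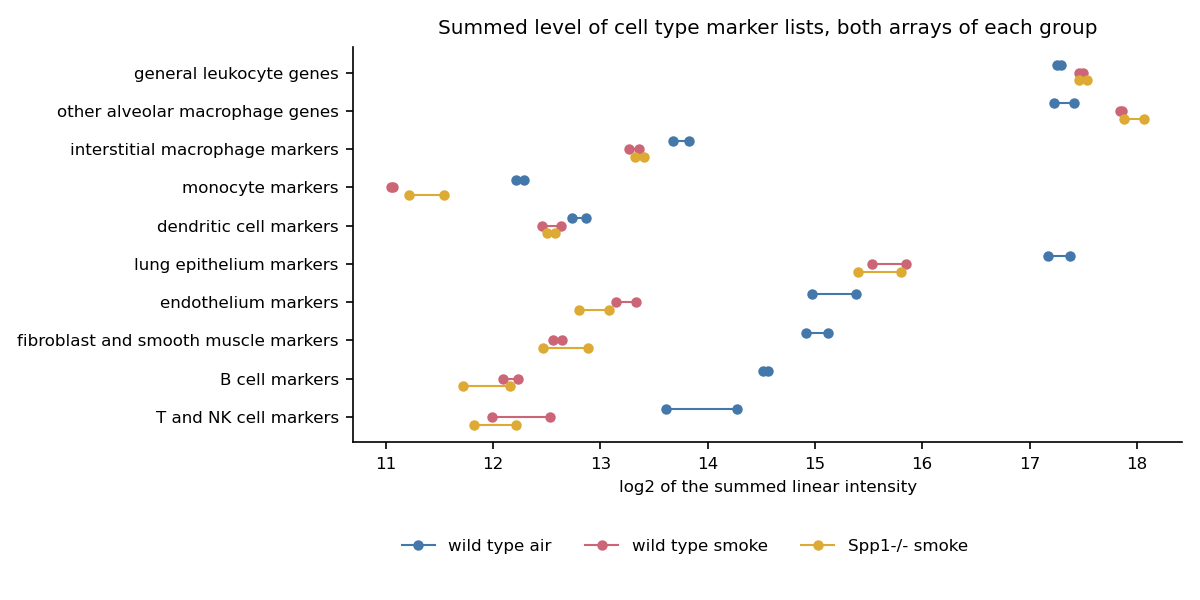
Log2 of the summed linear intensity of each marker list (horizontal axis) on the 2 arrays of each group (joined points). Lung epithelium markers sit between 17.17 and 17.38 in air and between 15.4 and 15.85 on the smoke arrays, whereas other alveolar macrophage genes sit between 17.23 and 17.41 in air and between 17.84 and 18.07 on the smoke arrays.

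In wild type mice, smoke was first set against room air. Itgax and Pparg rose and Krt79 fell, while the receptor chains did not pass the test. Of the 9 genes tested, 2 rose and 1 fell, read against 11.1% of all 12382 genes called higher and 10.3% called lower (21.4% in either direction) at a limma adjusted p under 0.05. The median log2 difference of the 9 genes was 0.0908, beside 0.0446 over all genes.

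Itgax encodes the integrin chain CD11c, carried by alveolar macrophages and dendritic cells. Its log2 intensity was 11.41 and 11.38 in wild type air, 12.29 and 12.19 in wild type smoke, and 12.24 and 12.47 in Spp1-/- smoke. All smoke arrays lay above both air arrays, and the gap between wild type smoke and air was 0.774. The difference was 0.84 (SE 0.12, 95% interval 0.54 to 1.15), a 1.8-fold rise, with a limma adjusted p of 0.00988.

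Itgax had a further, dimmer probe whose difference was larger. It read 8.01 and 7.42 in wild type air, 9.93 and 9.72 in wild type smoke, and 9.81 and 9.81 in Spp1-/- smoke. When every probe was fitted on its own, a choice made after both Itgax probes had been seen, it gave a log2 difference of 2.10 (SE 0.21), or 4.29-fold, with a limma adjusted p of 0.00616. The brighter probe in that fit gave 0.84 with a limma adjusted p of 0.0115. Both probes thus put Itgax higher in smoke, but by different amounts, and the annotation ties them to different transcript records.

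Pparg encodes PPAR-gamma, the nuclear receptor that GM-CSF raises in developing alveolar macrophages and that drives their lipid handling genes. Its log2 intensity was 11.85 and 11.90 in wild type air, 12.40 and 12.67 in wild type smoke, and 12.44 and 12.57 in Spp1-/- smoke. Every smoke array was above both air arrays, with a gap of 0.506 between the wild type groups. The difference was 0.67 (SE 0.13, 95% interval 0.34 to 0.99), a 1.59-fold rise, with a limma adjusted p of 0.0230. The other 2 Pparg probes were dim, with means of 7.24 and 6.95, and differed by 0.24 and -0.01. With the mean of a gene's probes in place of the brightest, Pparg differed by 0.30 (limma adjusted p = 0.0483) and Itgax by 1.47 (0.00297).

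Krt79, a keratin that alveolar macrophages of mice express, moved the other way. Its log2 intensity was 11.67 and 11.54 in wild type air, 10.47 and 10.45 in wild type smoke, and 10.57 and 10.27 in Spp1-/- smoke. All 4 smoke arrays lay below both air arrays, with a gap of 1.07 between the wild type groups. The difference was -1.14 (SE 0.13, 95% interval -1.48 to -0.80), or 2.21-fold lower, with a limma adjusted p of 0.00611. The epithelial keratins fell too: Krt8 averaged 9.64 in air and 8.11 in wild type smoke, a difference of -1.54 (limma adjusted p = 0.0181), and Krt18 averaged 9.14 and 7.42, a difference of -1.71 (limma adjusted p = 0.0151). Whether the epithelial share of the preparations had a part in the Krt79 value was not tested.

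These calls rest on both wild type smoke arrays. Without the first of them, none of the 9 genes passed, with limma adjusted p-values of 0.052 for Krt79, 0.057 for Pparg and 0.0744 for Itgax. Without the other, Krt79 alone passed, with 0.106 for Pparg and 0.0546 for Itgax; the differences themselves kept their direction and stayed between 0.53 and 0.80 for Pparg, 0.79 and 0.90 for Itgax and -1.21 and -1.08 for Krt79 whichever of the 6 arrays was left out. The rise of Pparg did not pass either where both Spp1-/- arrays, or either of them, stayed out of the fit (limma adjusted p = 0.059).

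Scale was the other limit. The mean log2 intensity of 11 general leukocyte genes was 12.62 and 12.48 on the air arrays and 13.02 to 13.19 on the smoke arrays. With each array centred on that mean, the median of all genes shifted from 0.0446 to -0.435 and the share of calls that were higher went from 51.8% to 8.54%. Read against leukocyte genes in this way, Krt79 stayed called lower, the differences of Itgax (0.36, limma adjusted p = 0.0599) and Pparg (0.19, limma adjusted p = 0.345) did not pass, and Siglecf (-0.71, 0.00858), Csf1r (-0.57, 0.0244) and Csf2rb (-0.48, 0.0334) were called lower. Of the 9 genes 4 were thus called lower and 0 higher, where 5516 of all 12382 genes were called lower and 515 higher. The leukocyte genes are not a neutral scale, since 4 of the 11 were called higher with smoke and 1 lower. Tyrobp, a myeloid gene given below, is among those higher. The centring shifted every log2 difference of this comparison by -0.48, that of Csf2rb from -0.0009 to -0.48. What lay behind the rise of the leukocyte genes was not tested.

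**Figure D3:**
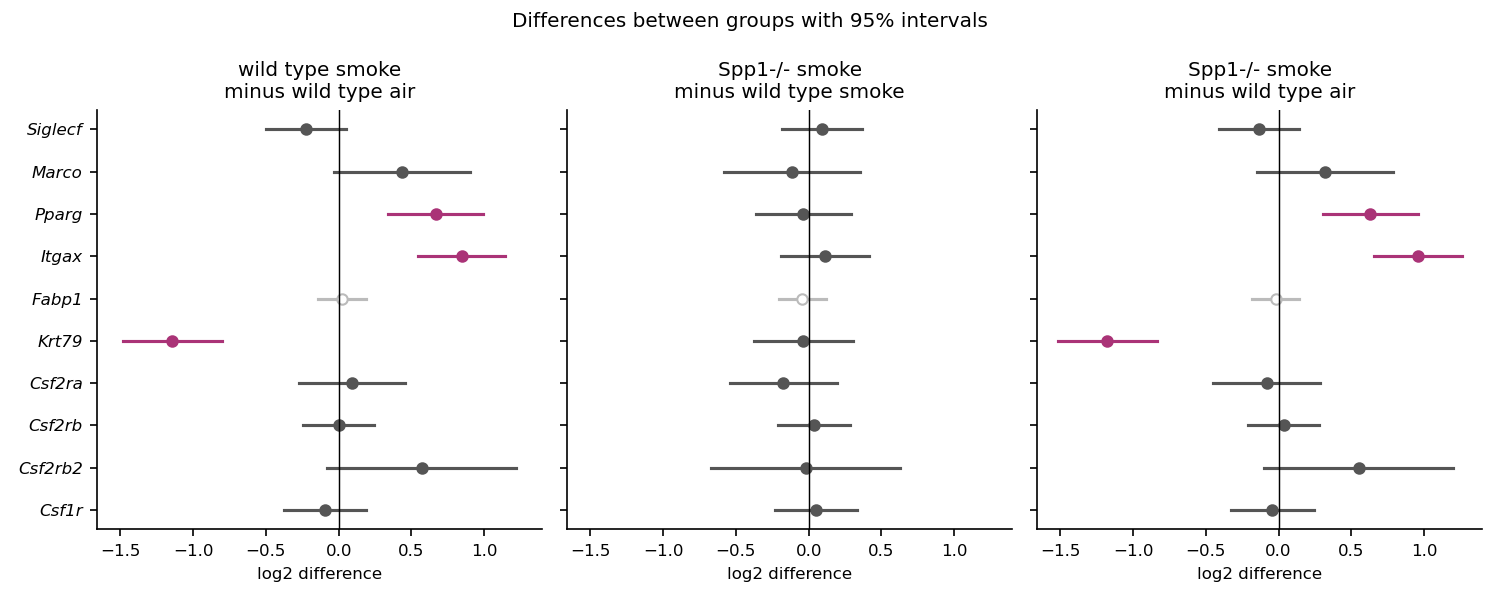
Log2 difference of each gene (point) with its 95% interval (line) in the 3 comparisons; coloured genes had a limma adjusted p under 0.05, and the open point is Fabp1, which the brightness filter left out. In wild type smoke against air Krt79 lies at -1.14, Pparg at 0.67 and Itgax at 0.84, and in Spp1-/- smoke against wild type smoke all 9 intervals of tested genes include 0.

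**Figure D4:**
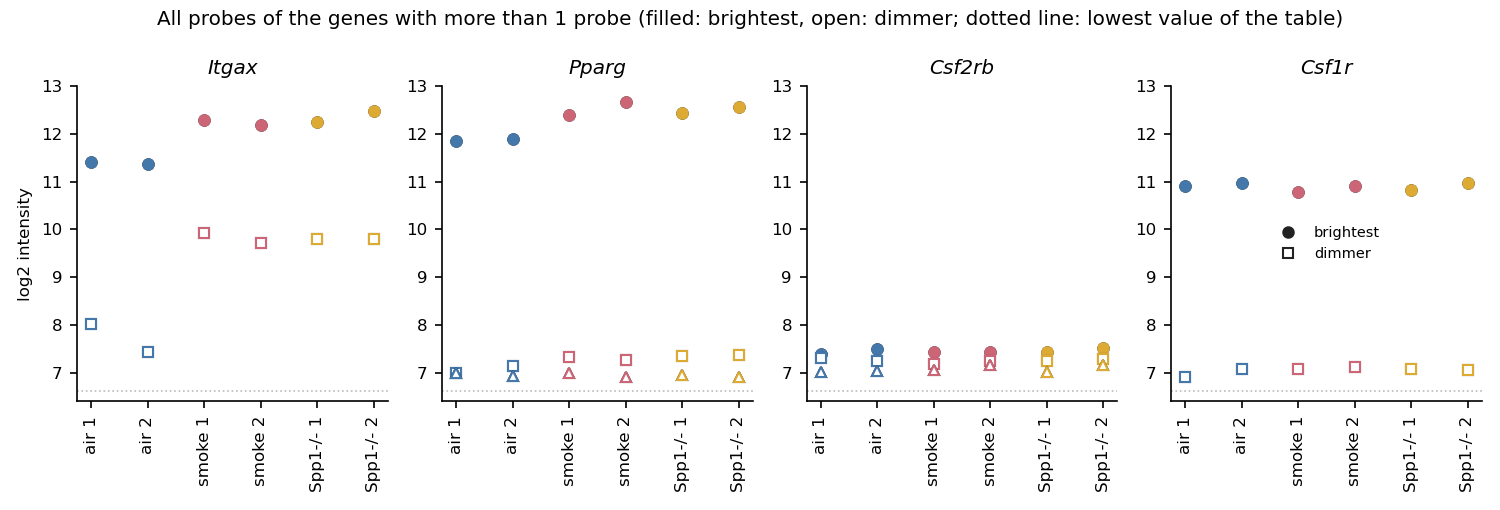
Log2 intensity of every probe of the 4 genes with more than 1 probe, by array; filled symbols are the brightest probe and open symbols the dimmer ones. The dimmer Itgax probe rises from 8.01 and 7.42 in air to between 9.72 and 9.93 on the smoke arrays, while the dimmer probes of Pparg, Csf2rb and Csf1r stay near the bottom of the scale.

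The other identity genes did not pass. Marco, a class A scavenger receptor that binds inhaled particles and bacteria, read 11.51 and 11.95 in wild type air, 12.30 and 12.03 in wild type smoke, and 12.03 and 12.07 in Spp1-/- smoke. The wild type smoke arrays lay above the air arrays by a gap of 0.0734, smaller than the distance between the 2 air arrays. The difference was 0.43 (SE 0.18, 95% interval -0.03 to 0.90) with a limma adjusted p of 0.170. It passed only where the second air array was left out, at 0.65 with a limma adjusted p of 0.042, and it was -0.05 with leukocyte centring.

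Siglecf, the sialic acid binding receptor that marks alveolar macrophages and eosinophils in mouse lung, read 7.72 and 7.61 in wild type air, 7.48 and 7.39 in wild type smoke, and 7.45 and 7.60 in Spp1-/- smoke. The smoke arrays lay below the air arrays, by a gap of 0.129 in wild type and of 0.0108 in Spp1-/-. The difference in wild type was -0.23 (SE 0.11, 95% interval -0.50 to 0.05), with a limma adjusted p of 0.216. The probe is dim enough that the floor of the table compresses its differences. Of 7 eosinophil markers, Prg2, Epx, Ccr3, Prg3 and Alox15 were below the brightness filter. The 2 tested went apart: Il5ra did not pass, as given below, and Ear6 rose. Ear6, a ribonuclease gene, averaged 7.35 in air and 12.97 in wild type smoke, a difference of 5.61 (limma adjusted p = 0.00128).

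Fabp1, a fatty acid binding protein that resting alveolar macrophages of mice express, read from 6.73 to 6.82 on all 6 arrays. The arrays of the 3 groups overlapped, and at this brightness no difference could be detected.

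Among the receptors, Csf2ra, the GM-CSF alpha chain, was bright and overlapped between exposures. It read 13.76 and 13.41 in wild type air, 13.62 and 13.73 in wild type smoke, and 13.51 and 13.50 in Spp1-/- smoke. Its difference with smoke in wild type was 0.09 (SE 0.14, 95% interval -0.27 to 0.46; limma adjusted p = 0.727), so a change of more than 0.46 upward lies outside the interval.

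Csf2rb, the common beta chain, read 7.39 and 7.49 in wild type air, 7.44 and 7.44 in wild type smoke, and 7.44 and 7.51 in Spp1-/- smoke. Its 3 probes had means of 7.45, 7.25 and 7.07, near the median of all probes, and each smoke group overlapped the air group. The difference was -0.0009 (SE 0.097, 95% interval -0.25 to 0.24; limma adjusted p = 0.996), at a brightness where the floor limits what can be seen.

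Csf2rb2, the IL-3 beta chain, was bright and varied within every group. It read 11.13 and 10.75 in wild type air, 11.30 and 11.73 in wild type smoke, and 11.23 and 11.76 in Spp1-/- smoke. Both wild type smoke arrays lay above both air arrays by a gap of 0.168, less than the distance between the arrays of any group. The difference was 0.57 (SE 0.26, 95% interval -0.08 to 1.22) and did not pass (limma adjusted p = 0.190), nor did it when any 1 array was left out. Because the beta chain genes are close in sequence, a probe of one may also bind RNA of the other, and these levels are uncertain to that extent.

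Csf1r read 10.91 and 10.97 in wild type air, 10.78 and 10.91 in wild type smoke, and 10.81 and 10.98 in Spp1-/- smoke. The groups overlapped, and the difference with smoke was -0.09 (SE 0.11, 95% interval -0.38 to 0.19; limma adjusted p = 0.630).

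Groups that do not overlap are common with 2 arrays each. In wild type smoke against air, 4 of the 9 genes lay above and 2 below without overlap, where 34.8% and 24.8% of all genes did so.

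The second comparison asked whether smoke-exposed cells without Spp1 differed from wild type ones. None of the 9 genes passed, and neither did any of the 12382 genes (0% called by limma, 540 at an unadjusted p under 0.05, smallest adjusted p 0.0751). For the 9 genes the count at an unadjusted p under 0.05 was 0 as well, and each had a limma adjusted p of 0.9997. Csf2ra had the largest difference in size, -0.17 (SE 0.14), with the Spp1-/- arrays below the wild type arrays by a gap of 0.109. Itgax had the highest, 0.11 (SE 0.12), with overlapping arrays.

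For the genes that had changed with smoke, the intervals of the genotype difference were -0.36 to 0.29 for Pparg, -0.19 to 0.41 for Itgax and -0.38 to 0.30 for Krt79. Over all 9 genes the bounds ran from -0.67 to 0.63, both set by Csf2rb2, so changes of up to 1.59-fold downward or 1.55-fold upward lie within the intervals for that gene. A p above the threshold does not show that the genotypes were alike. Csf2rb lay above without overlap by 0.000251, and the share of all genes whose groups did not overlap was 37.8%.

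The third comparison set Spp1-/- smoke against wild type air, using the same air arrays as the first. Itgax and Pparg were again called higher and Krt79 lower, 2 and 1 of 9, read against 12.2% of all genes called higher and 10.5% called lower (22.6% in either direction). The differences were 0.96 for Itgax (SE 0.12, limma adjusted p = 0.00678), 0.63 for Pparg (SE 0.13, limma adjusted p = 0.0258) and -1.18 for Krt79 (SE 0.13, limma adjusted p = 0.00548). Csf2rb2 was 0.55 higher (limma adjusted p = 0.201), Marco 0.32 higher (0.294) and Siglecf 0.14 lower on the log2 scale (a difference of -0.14, 0.453), and none of these passed. The Pparg call did not hold without the first Spp1-/- array (limma adjusted p = 0.100) or the other (0.152), and the Itgax call did not hold without the second Spp1-/- array (0.0535). With leukocyte centring neither gene was called higher, at 0.04 for Pparg (limma adjusted p = 0.853) and 0.36 for Itgax (0.0514), and the 5 genes then called, Krt79, Siglecf, Csf2ra, Csf2rb and Csf1r, were lower. In that setting 7251 of all 12382 genes were called lower and 462 higher.

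The genes listed around the GM-CSF receptor include its ligand, partner chains, kinases, STAT proteins and feedback inhibitors. The list also holds the transcription factor genes Bhlhe40 and Spi1 and the phosphatase gene Ptpn11. This list and those that follow were chosen with earlier results of these data known. Of 20 tested genes of the pathway, 4 rose and 1 fell in wild type smoke against air, beside 11.1% and 10.3% of all genes. The median difference was 0.108 beside 0.0446 over all genes. Socs3, a feedback inhibitor of cytokine receptor signalling, averaged 9.37 in air and 11.39 in wild type smoke, a difference of 2.02 (SE 0.11, limma adjusted p = 0.00157). Bhlhe40, a transcription factor of alveolar macrophage self-renewal, averaged 12.05 and 13.21 and rose by 1.16 (limma adjusted p = 0.00434). Stat5a, which carries the GM-CSF signal to the nucleus, averaged 8.11 and 8.55 and rose by 0.45 (limma adjusted p = 0.0360), and Spi1, the gene of PU.1, averaged 7.39 and 7.89 and rose by 0.50 (limma adjusted p = 0.0264). In air Spi1 lay close above the filter's cut of 7.274, where the floor compresses differences.

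Ptpn11, the phosphatase SHP-2, averaged 14.29 in air and 13.69 in wild type smoke and fell by 0.60 on the log2 scale (limma adjusted p = 0.0156). The receptor partners Il3ra (-0.30, limma adjusted p = 0.135) and Il5ra (-0.06, 0.822) and the kinase gene Jak2 (0.13, 0.718) did not pass, nor did Cish, a target of STAT5 (0.60, 0.0638). The probes of Csf2, the gene of GM-CSF, and of Il3, Il5 and Stat5b were below the brightness filter. Fewer of the 20 rose without any single smoke array of either genotype, and 2 rose and 8 fell with leukocyte centring. In that setting 515 of all 12382 genes rose and 5516 fell.

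For the CSF1 receptor, 4 of 10 tested genes rose and 0 fell (11.1% and 10.3% of all genes did so), with a median of 0.0963. Its ligand gene Csf1 averaged 7.52 in air and 8.94 in wild type smoke, a difference of 1.42 (SE 0.22, limma adjusted p = 0.0133). Tyrobp, an adaptor of myeloid receptors, averaged 11.67 and 13.16 and rose by 1.49 (limma adjusted p = 0.00175). Runx1 rose by 1.17 (limma adjusted p = 0.0216), and Spi1, given above, belongs to this list too. Il34, the other ligand, was below the brightness filter. Fewer of the 10 rose without any single smoke array of either genotype, and with leukocyte centring 3 rose and 4 fell. In that setting 515 of all 12382 genes rose and 5516 fell.

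Among partners and targets of PPAR-gamma, 2 of 17 rose and 1 fell, read against the 11.1% of all genes called higher and 10.3% called lower. Of the 17 differences 15 were above 0, and the median was 0.417. Leukocyte centring, which lowers every difference of this comparison by the same amount, left 7 of the 17 above 0, put the median at -0.06 and called 2 higher and 2 lower. In that setting 515 of all 12382 genes were called higher and 5516 lower, with a median of -0.435. Fabp5, a fatty acid binding protein, averaged 8.62 in air and 11.70 in wild type smoke, a difference of 3.08 (SE 0.30, limma adjusted p = 0.00381). Pdk4, a switch of fuel use, averaged 8.58 and 9.97 and rose by 1.40 (limma adjusted p = 0.0343). Cidec, a lipid droplet protein, averaged 11.27 and 9.75 and fell by 1.52 on the log2 scale (limma adjusted p = 0.0134). Lpl, the lipoprotein lipase gene, differed by 0.56 and did not pass (limma adjusted p = 0.0549). The count that rose was 1 without any single smoke array of either genotype and 4 without either air array.

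**Figure D5:**
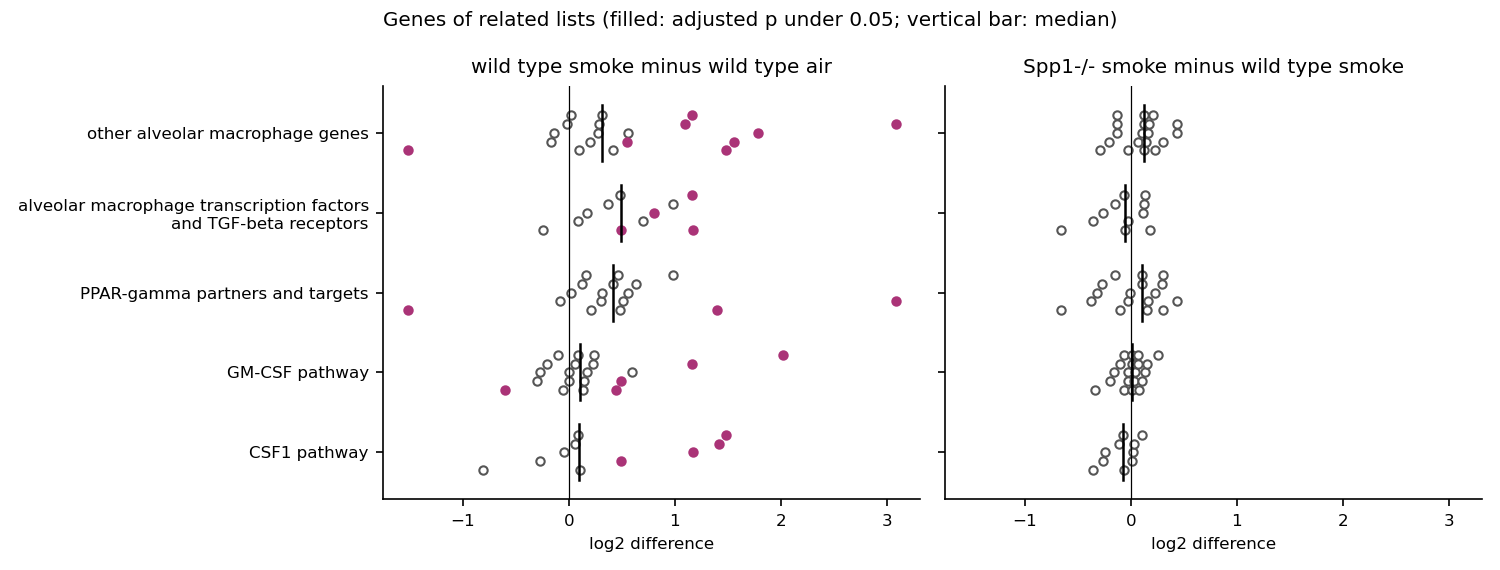
Log2 difference of each tested gene (points) of 5 related lists in wild type smoke against air and in Spp1-/- smoke against wild type smoke; filled points had a limma adjusted p under 0.05 and vertical bars mark list medians. With smoke the called genes run from Cidec at -1.52 to Fabp5 at 3.08, and between genotypes no point is filled.

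The wider list of alveolar macrophage genes was chosen with earlier results of these data known, so its counts are not a test. Of all genes, 11.1% were called higher and 10.3% lower. In this list more genes rose than fell, 7 against 1 of 19 tested, with a median difference of 0.314. Besides Fabp5, these were Ctsk, a cathepsin (13.96 in air and 15.75 in wild type smoke, a difference of 1.79, limma adjusted p = 0.00157), Car4, a carbonic anhydrase (11.54 and 13.10, 1.56, 0.00484), Ctsd (1.17, 0.00668), Plet1 (1.09, 0.0127), Slc7a2 (1.48, 0.0346) and Atp6v0d2 (0.55, 0.0357). The gene that fell was Cidec. Chil3 (-0.01, limma adjusted p = 0.966), Mrc1 (0.28, 0.473), Mertk (0.28, 0.267) and Axl (0.20, 0.383), of the same list, did not pass. Chil3 read from 15.529 to 15.996 over the arrays, near the highest value of all probes, 16.014, where a rise may not show. Fewer of the 19 rose without the first wild type smoke array, and with leukocyte centring 6 rose and 4 fell, with a median of -0.17. In that setting 515 of all 12382 genes rose and 5516 fell, with a median of -0.435.

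The transcription factors and TGF-beta receptors tied to these cells had a median of 0.497. Of 11 tested, 4 rose and 0 fell, beside 11.1% and 10.3% of all genes. Those that rose were Bhlhe40, Runx1, Spi1 and Tgfbr2, a receptor for TGF-beta (12.94 in air and 13.74 in wild type smoke, a difference of 0.80, limma adjusted p = 0.0225). Bhlhe40, Runx1 and Spi1 were counted in lists above as well. Fewer of the 11 rose without any single smoke array of either genotype, and with leukocyte centring 2 rose and 1 fell. In that setting 515 of all 12382 genes rose and 5516 fell.

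Relatives of the identity genes did not all follow them, where 11.1% of all genes were called higher and 10.3% lower. In the Siglec family, Cd33 rose by 1.70 (limma adjusted p = 0.00558), while Cd22 (-0.80, 0.00979), Siglecg (8.59 in air and 7.59 in wild type smoke, 0.0280) and Siglech (-1.43, 0.0294) fell. These last 3 are known from B cells and plasmacytoid dendritic cells, and the B cell markers Cd79b (12.86 in air, 10.21 in wild type smoke) and Fcmr (13.84 and 11.27) fell as well. Whether the share of such cells had a part in the falls was not tested. Of these 3 falls in the Siglec family, 0 passed without the first wild type smoke array and 1 without the other. Of 3 tested beta2 integrin genes other than Itgax, Itgad fell from 10.86 to 7.62, a difference of -3.24 (limma adjusted p = 0.00573), and Itgb2, which encodes the partner chain of CD11c, differed by 0.21 and did not pass (0.533). Among class A scavenger receptors Msr1 rose by 1.12 (limma adjusted p = 0.0382), a call lost without any single array of the wild type groups.

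Between genotypes under smoke, no gene of these lists passed. The smallest p in the GM-CSF pathway was that of Stat5a, with a difference of -0.33 (limma adjusted p = 0.9997). Socs3 differed by -0.16 and Car4 by 0.15. Fabp4, a PPAR-gamma target that marks alveolar macrophages, averaged 7.05 in air, 7.36 in smoke-exposed wild type and 7.80 in smoke-exposed Spp1-/- mice. Its genotype difference was 0.43 (limma adjusted p = 0.9997). Its mean in air was below the filter's cut of 7.274, so it was kept only through the smoke arrays.

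Markers of other myeloid cells moved in mixed directions with smoke, where 11.1% of all genes were called higher and 10.3% lower. Of 11 interstitial macrophage markers 2 rose and 3 fell, with Lyve1 lower (-2.56, limma adjusted p = 0.00207) and Ms4a7 higher (2.09, 0.00281). Of 6 monocyte markers 2 fell, Plac8 (-1.29, limma adjusted p = 0.0127) and Ace (-1.72, 0.0139). Of 10 dendritic cell markers 2 rose, Irf4 (1.65, limma adjusted p = 0.00321) and Itgae (2.05, 0.00899), and 2 fell, Dpp4 (-2.13, 0.00230) and Siglech. Without the first wild type smoke array these counts were 1 and 1 for interstitial macrophages, 0 for monocytes and 1 and 1 for dendritic cells. Itgax is shared by dendritic cells and alveolar macrophages, and the part of each in its level was not tested.

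The profile of each gene over the 6 arrays, after its own mean was subtracted, was set against those of all kept genes by the root mean square difference. The nearest other genes were Caprin1 (0.0295) and Dhx29 (0.0472) for Itgax, Gla (0.0285) and Lpcat2 (0.0298) for Pparg, Sh3tc2 (0.0573) and Mcf2l (0.0602) for Krt79, Usp16 (0.0384) and Ly96 (0.0611) for Csf2rb2, and Ubl5 (0.0459) and Pde6d (0.0548) for Marco. Pparg and Itgax were each other's nearest among the 10 genes, at 0.176. Krt79 had no near companion there, its closest being Siglecf at 0.482. Such likeness is common over 6 arrays in 3 groups, since 1231 genes lay within 0.2 of Pparg and 222 within 0.2 of Krt79. The nearest to the remaining genes were Drc7 and Ptpra for Siglecf, Hcn3 and Rhpn1 for Csf2ra, Cdc34 and Btbd17 for Csf2rb, and 1700001L05Rik and Eif2s3y for Csf1r.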

How the data were processed

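Values were the deposited log2 intensities of 45281 probes on 6 arrays. Once sorted, the columns lay within 0.0056 of each other, as after quantile normalization. Of tools, the submitters' processing notes list limma with no version; the background correction is not given there. Per the labels' protocols, Trizol RNA was made into biotinylated cRNA for Illumina arrays. A floor near 6.619 compresses differences of dim probes, and 2 arrays per group limit the precision. A second table of 12 signal and detection columns was not used, since its headers match no label.

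Symbols came from the platform annotation: 34885 probes had 1 symbol, 18 several and 10378 none here; 34807 symbols were updated through Entrez identifiers with the RefSeq table of GRCm38.p6. Each gene was read from its brightest probe, and 12382 genes with a mean of at least 7.274 were kept.

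One model with 1 coefficient per group was fitted over all arrays with limma 3.58.1 in R 4.3.3 (lmFit and eBayes, 3 residual and 2.24 prior degrees of freedom). Benjamini-Hochberg adjustment ran over the 12382 genes, and a gene was called at an adjusted p under 0.05. Exact permutation was not used, since 2 arrays against 2 allow no p below 0.333. The steps were tested on simulated data. The genes followed and the gene lists were chosen with earlier results of these data known. Genes named were all 10, the nearest profiles, and of each list up to 4 by smallest p with smoke and 2 by genotype (3 for marker lists), plus ligands, partners and signal carriers. Chil3, Mrc1, Mertk, Axl, Cish, Itgb2, Krt8, Krt18, the further called genes of the alveolar macrophage list and the eosinophil markers below the filter were named after their values had been seen.

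Replicate numbers of the titles did not pair the arrays: the deviations of same-numbered arrays correlated at 0.14, -0.082 and -0.029 between groups. Alternatives were no filter, a stricter filter (brighter 25%), the mean of a gene's probes, a robust prior with an intensity trend, array weights, a fit to the compared groups alone, a replicate block, floor subtraction with an offset of 16, centring on the median gene or on leukocyte genes, and each array left out, where the lone array of a group was assumed to vary like the others. Fitting every probe on its own was added after the data had been seen. Figures were drawn with matplotlib.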

Additional observations from a re-analysis of the deposited data

How the results depend on the processing

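In wild type smoke against air the count of the 9 genes that passed was 3, and 0 to 4 with each array left out; of all genes 2645 passed, 1489 with only the compared groups, 6031 with leukocyte centring, and 743 to 3858 with arrays left out. In Spp1-/- smoke against wild type air the count for the 9 was 3 (2 higher, 1 lower), 5 with leukocyte centring (0 higher, 5 lower) and 1 to 3 with arrays left out; of all genes 2804 passed, 1842 with only the compared groups, 7713 with leukocyte centring, and 673 to 4035 with arrays left out. Leukocyte centring moved the share of higher calls there from 53.7% to 5.99%. In the genotype comparison 0 genes passed, but 8 with the stricter filter, 7 with a trend and robust prior, 9 with array weights, 6 with only the compared groups, 5 with leukocyte centring and 0 to 6 with arrays left out; none of the 9 genes passed in any of these, of which the stricter filter tested 7. With the replicate number as a block, 2248, 0 and 2367 genes passed in the 3 comparisons, and 3, 0 and 3 of the 9. With array weights Pparg no longer passed in Spp1-/- smoke against air (limma adjusted p = 0.0513). Of 423 differences of the genes followed under alternatives, 373 kept their direction and side of the threshold, 16 no longer passed, 7 newly passed and 27 turned in sign. None of the 27 had passed as reported, and Csf2rb alone passed after turning, at -0.56 in Spp1-/- smoke against air with leukocyte centring (limma adjusted p = 0.0155). That centring also turned Marco (-0.047) and Csf2ra (-0.39) in wild type smoke against air, Marco (-0.28) and Csf2rb2 (-0.045) in Spp1-/- smoke against air, and Siglecf (-0.024), Itgax (-0.00099), Csf2rb (-0.078) and Csf1r (-0.064) between genotypes. The mean of a gene's probes turned Csf1r to 0.0036 in wild type and 0.019 in Spp1-/- smoke against air, and median centring turned Csf2rb to 0.0027 in wild type. With arrays left out, the ranges that crossed 0 were -0.083 to 0.27 for Csf2ra and -0.051 to 0.049 for Csf2rb in wild type smoke against air. Against wild type air the Spp1-/- ranges were -0.26 to 0.091 for Csf2ra, -0.015 to 0.085 for Csf2rb and -0.12 to 0.037 for Csf1r. Between genotypes they were -0.25 to 0.025 for Marco, -0.17 to 0.099 for Pparg, -0.0013 to 0.23 for Itgax, -0.18 to 0.11 for Krt79, -0.29 to 0.24 for Csf2rb2 and -0.031 to 0.13 for Csf1r. Where fewer samples entered the fit, fewer degrees of freedom remained; otherwise the cause was not tested. Dim probes such as those of Siglecf, Csf2rb and Fabp1 lie near the floor, which limits what they can show.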
